A study of Mus musculus with 6 samples.

Results

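Monocytes and macrophages are recognised by a set of surface receptors and secreted or lysosomal proteins, and 42 mouse genes of that kind are described here in leukemia cells given an inhibitor of the histone demethylase LSD1. The genes were taken by name from a list made for this work, without a threshold on their values. The list was chosen with earlier results of these data known, so its counts beside those of all genes are a description only. Of the 42, 37 had a row among the 15035 gene symbols analysed, and 29 of these were high enough to be tested. Cd36, C1qa, C1qb, C1qc and Mertk were not analysed here.

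The cells were BALB/c mouse bone marrow cells made to express mutant CSF3R, a cytokine receptor that drives granulocyte production, together with mutant CEBPA, a myeloid transcription factor, from retroviruses. Both groups carried both mutant genes and grew in IMDM medium with 20% FBS. The control group was given DMSO, the solvent, and the treated group was given GSK-LSD1 at 4 nM, each for 48 h and each with 3 RNA-seq libraries. Whether libraries of 1 group stem from separate cultures, clones or animals is not stated in the labels. The p-values therefore cover only the spread among these libraries, and that spread may be technical. No library here came from cells without the mutant genes.

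As background, macrophages and monocytes read their surroundings through receptors that come in activating and inhibitory forms. Activating Fc gamma receptors and TREM receptors have no signalling tail of their own and signal through small adaptor chains, Fcer1g and Tyrobp (DAP12), that carry activation motifs. Inhibitory receptors such as Pirb, Sirpa and Cd300a carry motifs in their tails that recruit the phosphatases Ptpn6 and Ptpn11. Many of these receptors are also made by neutrophils, mast cells and basophils, while F4/80 (Adgre1) and complement C1q are more typical of macrophages. LSD1 removes methyl groups from histone H3 and is recruited to DNA in blood cells by the repressors GFI1 and GFI1B, while PU.1 and C/EBP factors activate many genes of the myeloid lineages.

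Each value reads as a gene's count after division by 1 factor for its library, called scaled reads below. They summed to between 9877460 and 10107900 per library, and 13879 to 14106 genes had a value above 0. Taken as 1 read, the smallest value of a library was 0.973 to 1.04 scaled reads. The 3 DMSO libraries differed among themselves more than the 3 GSK-LSD1 libraries did. Over genes, chi-square divided by its degrees of freedom ranged from 2.52 to 3.51 within DMSO, 1.57 to 1.86 within GSK-LSD1 and 17.7 to 20.1 between the groups. A gene was tested when its value reached 10 in at least 3 of the 6 libraries, which 11588 genes did. Log2 fold changes are those of value + 1, GSK-LSD1 against DMSO, from limma, two-sided, with p-values adjusted by Benjamini-Hochberg across the 11588 genes, and they understate the change of low genes.

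With GSK-LSD1, 23 of the 29 tested genes were higher and 1, Cd300a, was lower at an adjusted p under 0.05. Over all genes tested, 20.6% were higher and 20.5% were lower. A rise of at least 2-fold was found for 14 of the 29, where 4.51% of all genes tested rose that far, and none fell by 2-fold, where 0.975% of all genes did. The median log2 fold change over the 29 was 0.96, with a range from -0.66 to 3.12, and it was -0.01 over all genes tested. Fcgr4, Ms4a6d and Gpnmb entered the test through their GSK-LSD1 values alone, since each of their DMSO values lay under 10. All 3 are among the 14 that rose at least 2-fold (log2 fold changes 2.09, 1.94 and 2.02). The shares over all genes tested were not recounted without genes of this kind. Among the other 26, 20 were higher and the median was 0.69. In 24 of the 29, Fcgr4, Ms4a6d and Gpnmb among them, every GSK-LSD1 library lay above every DMSO library. In Cx3cr1 and Cd300a every GSK-LSD1 library lay below. The share of all genes tested whose groups separate in this way was not counted, so no background stands beside these numbers. RNA came from whole cultures, so more cells of a type and more RNA per cell cannot be told apart.

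**Figure D1:**
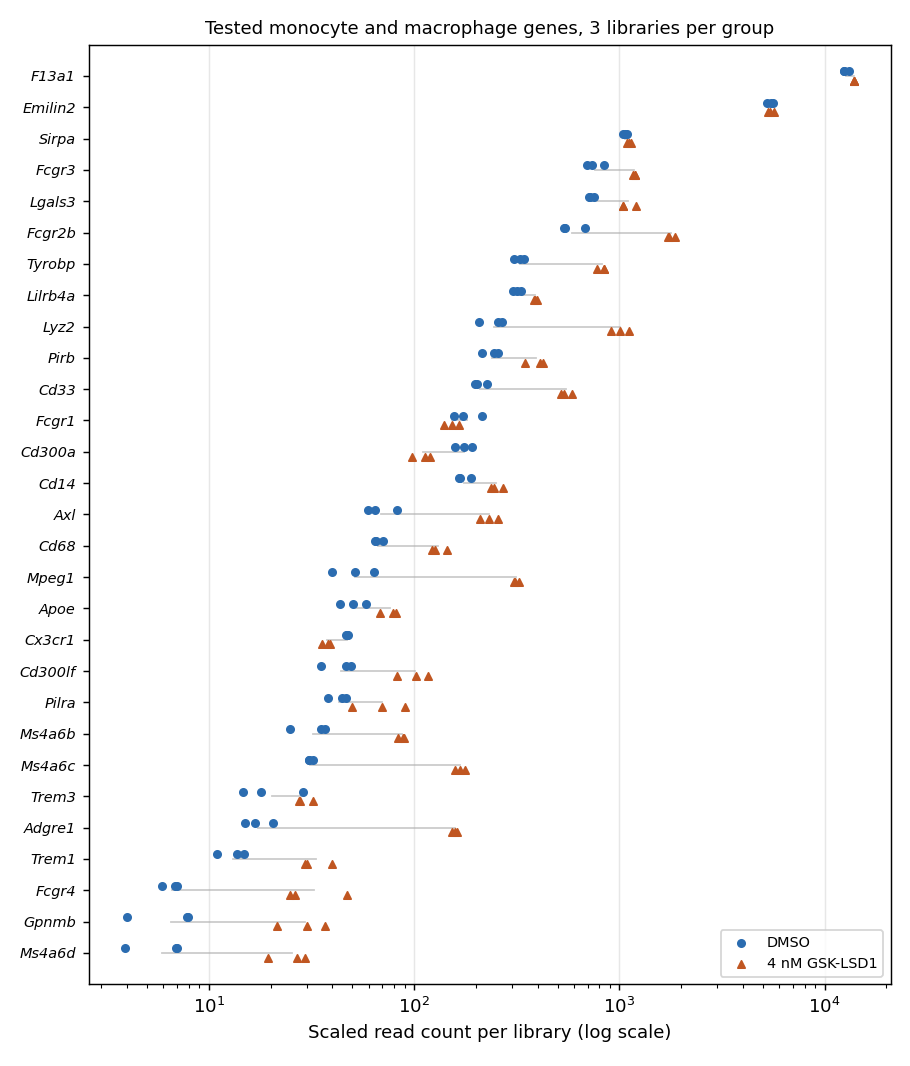
Scaled reads (horizontal axis, log scale) of the 29 tested monocyte and macrophage genes, with circles for the 3 DMSO libraries, triangles for the 3 GSK-LSD1 libraries and a grey line between the group means. Adgre1, Mpeg1, Ms4a6c and Lyz2 separate widely, while F13a1, Emilin2 and Sirpa have nearly the same position in both groups.

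Among the surface markers by which monocytes and macrophages are named, Adgre1, Cx3cr1, Ly6c2 and Ly86, 1 of the 2 tested rose. Adgre1 encodes F4/80, an adhesion G protein-coupled receptor used as the standard mouse macrophage marker, and lies on chromosome 17 from 57358691 to 57483527 (GRCm38, plus strand). Its values were 20.5, 16.8 and 14.9 scaled reads in DMSO libraries 1 to 3 and 159, 163 and 154 in GSK-LSD1 libraries 1 to 3. All treated libraries were far above all controls. The mean rose 9.09-fold, from 17.4 ± 2.83 to 158 ± 4.40 (SD, n = 3 each), a log2 fold change of 3.12 (SE 0.172, adjusted p = 3.25e-17), and it was the largest change among the 29.

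Cx3cr1, the fractalkine receptor that marks patrolling monocytes and many resident macrophages, did not follow Adgre1. It had 46.9, 46.6 and 47.8 scaled reads with DMSO and 35.7, 38.3 and 38.9 with GSK-LSD1. The groups did not overlap, but the log2 fold change of -0.32 (SE 0.186) did not pass the test (adjusted p = 0.176). With quantile scaling it was -0.55 and passed (adjusted p = 0.0152), while the other alternatives gave adjusted p from 0.166 to 0.302. Ly6c2, which encodes the Ly6C antigen of inflammatory monocytes, stayed under the level needed for a test, with 3.91, 11.9 and 4.98 scaled reads in DMSO and 11.2, 2.07 and 8.76 in GSK-LSD1, or 21 reads against 22. Its groups overlapped throughout. Ly86 (MD-1), a secreted partner of the receptor CD180, was listed at 0 in all 3 DMSO libraries and at 2.04, 1.04 and 0 with GSK-LSD1, 3 reads in all. A count of 0 over a group allows up to 3 reads, so no difference was detectable at this depth. Cd180 itself, also near the floor, had a mean of 3.29 ± 1.13 with DMSO and 11.8 ± 0.605 with GSK-LSD1 (log2 fold change 1.61, adjusted p = 0.00302).

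Fc gamma receptors bind the constant part of IgG, and the 4 mouse genes, Fcgr1, Fcgr2b, Fcgr3 and Fcgr4, moved to unequal degrees. Of the 4, 3 rose and 1 did not pass. Fcgr4, among the 3 that rose, entered the test through its GSK-LSD1 values alone. Fcgr2b encodes the one inhibitory receptor of the group and lies on chromosome 1 from 170958617 to 170976547. It had 545, 538 and 680 scaled reads in the DMSO libraries and 1749, 1861 and 1719 in the GSK-LSD1 libraries. Every treated library was well above every control. The mean rose 3.02-fold, from 588 ± 80.0 to 1776 ± 75.03, a log2 fold change of 1.60 (SE 0.0650, adjusted p = 3.92e-21).

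Fcgr4, an activating receptor for IgG2a and IgG2b, lies in the same cluster, on chromosome 1 from 171018920 to 171029761. It was close to the floor in DMSO, at 6.84, 5.95 and 6.97 scaled reads, and reached 46.9, 24.8 and 26.3 with GSK-LSD1. The treated libraries spread widely, with the first far above the other 2, and all were above the controls. The mean rose 4.97-fold, from 6.58 ± 0.556 to 32.7 ± 12.4 (log2 fold change 2.09, SE 0.314, adjusted p = 1.24e-06).

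Fcgr3, the low-affinity activating receptor next to them on chromosome 1 (171051174 to 171064935), is shared by macrophages, neutrophils, mast cells and NK cells. Its values were 696, 736 and 841 with DMSO and 1195, 1190 and 1170 with GSK-LSD1, and they did not overlap. The rise was smaller, 1.56-fold, from 758 ± 74.8 to 1185 ± 13.3 (log2 fold change 0.65, SE 0.0598, adjusted p = 3.69e-11). Fcgr1, the high-affinity receptor used as a marker of macrophages and monocytes, had 174, 157 and 214 scaled reads with DMSO and 153, 140 and 165 with GSK-LSD1. Its groups overlapped, and the log2 fold change of -0.24 (SE 0.113) did not pass (adjusted p = 0.0886). It passed without DMSO replicate 2 (-0.34, adjusted p = 0.0315) and with quantile scaling (-0.32, adjusted p = 0.0237), while the adjusted p reached 0.479 without DMSO replicate 3.

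The order of levels within the family, set per length of exon, was the same in both groups. In DMSO, Fcgr3 stood at 437 scaled reads per kb, Fcgr2b at 102, Fcgr1 at 70.1 and Fcgr4 at 5.24. With GSK-LSD1 they stood at 683, 307, 59 and 26, so Fcgr2b moved away from Fcgr1 and Fcgr4 moved toward it. Fcer1g, the shared gamma chain through which Fcgr1, Fcgr3 and Fcgr4 signal, averaged 1188 ± 17.2 scaled reads in controls and 1209 ± 69.5 after treatment. Its log2 fold change of 0.02 did not pass (adjusted p = 0.744). Fcer1a, the IgE-binding chain that uses the same adaptor, fell by 0.35 on the log2 scale, from 5758 to 4518 scaled reads. Of the 50-base windows of Fcgr3 transcripts, 9.58% also occur in transcripts of another gene, and for Fcgr2b 4.38%, so reads in those windows could be assigned to either gene.

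Of the pattern, scavenger and endocytic receptors Cd14, Cd68, Mrc1, Msr1, Cd163 and Cd36, the 2 that could be tested rose, each by under 2-fold, and the receptors typical of tissue macrophages were near the floor. Cd14, the lipopolysaccharide co-receptor of monocytes, had 167, 190 and 165 scaled reads with DMSO and 272, 236 and 244 with GSK-LSD1. The rise was 1.44-fold (log2 fold change 0.52, SE 0.0961, adjusted p = 3.23e-05). Cd68, a lysosomal membrane glycoprotein of macrophages on chromosome 11, had 70.3, 65.4 and 64.7 with DMSO and 122, 126 and 144 with GSK-LSD1, a 1.96-fold rise (log2 fold change 0.96, SE 0.132, adjusted p = 2.83e-07). Neither gene's groups overlapped.

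Mrc1 is the mannose receptor CD206, Msr1 the class A scavenger receptor, and Cd163 the receptor for haemoglobin bound to haptoglobin. Summed over 3 libraries, Mrc1 had 5 reads with DMSO and 6 with GSK-LSD1, Msr1 had 0 and 4, and Cd163 had 20 and 15. At these counts no difference was detectable. The partners of Cd14 in lipopolysaccharide sensing were low: Tlr4 had a mean of 14.2 ± 1.05 with DMSO and 24.8 ± 5.80 with GSK-LSD1 (log2 fold change 0.74, adjusted p = 0.0297). Ly96 (MD-2) had 12.8 ± 3.84 and 19.2 ± 2.01, and did not pass (adjusted p = 0.125).

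The MS4A genes encode membrane proteins that cross the lipid bilayer several times, and Ms4a6b, Ms4a6c, Ms4a6d and Ms4a7 sit in a cluster on chromosome 19. The 3 that could be tested all rose, where 20.6% of all genes tested were higher. Of the 3, Ms4a6d entered the test through its GSK-LSD1 values alone. Ms4a6c (11469366 to 11482192) had 32.2, 30.7 and 30.9 scaled reads with DMSO and 159, 167 and 176 with GSK-LSD1. Controls were tightly grouped and every treated library was several-fold above them. The mean rose 5.35-fold, from 31.3 ± 0.834 to 167 ± 8.52 (log2 fold change 2.38, SE 0.146, adjusted p = 6.16e-16). In Ms4a6c 10.5% of 50-base windows are shared with another gene.

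Ms4a6b (11516512 to 11531256) had 35.2, 24.8 and 36.8 with DMSO and 89.8, 83.8 and 88.6 with GSK-LSD1, with no overlap, a 2.71-fold rise (log2 fold change 1.43, SE 0.178, adjusted p = 3.37e-08). Ms4a6d (11586604 to 11604849) was near the floor in DMSO at 3.91, 6.94 and 6.97 and had 29.6, 26.9 and 19.5 with GSK-LSD1, a 4.27-fold rise (log2 fold change 1.94, SE 0.337, adjusted p = 1.49e-05). Ms4a7, a marker of mature and resident macrophages, was under the level for a test, with 3 reads in all DMSO libraries and 12 in all GSK-LSD1 libraries. Elsewhere in the gene family the direction was not shared. Ms4a3, a gene of granulocyte and monocyte progenitors, fell by 1.15 on the log2 scale, from 286 ± 10.1 to 129 ± 5.51 scaled reads. Ms4a4b rose from 3.29 ± 1.51 to 18.5 ± 2.06 (log2 fold change 2.23), and Ms4a2, the beta chain of the IgE receptor, was at 253 and 296 and did not pass (adjusted p = 0.0612).

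Axl is a receptor tyrosine kinase of the TAM group that takes part in the uptake of dying cells. It had 59.6, 64.4 and 82.6 scaled reads with DMSO and 256, 233 and 209 with GSK-LSD1. The groups were far apart. The mean rose 3.38-fold, from 68.9 ± 12.2 to 233 ± 23.4 (log2 fold change 1.75, SE 0.126, adjusted p = 5.62e-14). Tyro3, the relative in the same kinase group, was at 130 and 121 scaled reads, and Pros1, which encodes a bridging ligand of TAM kinases, was at 49.7 and 52.2. Neither passed the test (adjusted p = 0.515 and 0.762).

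Among the TREM receptors and their adaptor, Trem1, Trem3 and Tyrobp could be tested and 2 rose. Tyrobp encodes DAP12, the adaptor of TREM receptors and of several other activating receptors. It had 306, 345 and 329 scaled reads with DMSO and 777, 846 and 845 with GSK-LSD1. No treated library came near a control. The mean rose 2.52-fold, from 326 ± 19.7 to 823 ± 39.2 (log2 fold change 1.33, SE 0.0673, adjusted p = 2.20e-18). Trem1, an amplifier of inflammatory responses on neutrophils and monocytes, lies on chromosome 17 (48232768 to 48246924) and had 13.7, 14.9 and 10.95 with DMSO and 29.6, 30.0 and 39.9 with GSK-LSD1. Its rise was also 2.52-fold (log2 fold change 1.27, SE 0.262, adjusted p = 1.64e-04).

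Trem3, the neighbour of Trem1 (48247777 to 48258841), had a mean of 20.4 ± 7.37 with DMSO and 29.2 ± 2.53 with GSK-LSD1. Its second DMSO library, at 28.7, lay within the treated range, and the log2 fold change of 0.55 did not pass (adjusted p = 0.0882). Without that library it was 0.81 and passed (adjusted p = 0.0213), and over the alternatives the adjusted p reached 0.399. Trem2, the lipid-sensing receptor of microglia and tissue macrophages, was listed at 0 in every DMSO library and at 3.06, 3.11 and 0.973 with GSK-LSD1, 7 reads in all. Against a floor of 3 reads over the group, that difference is close to the limit of detection. In the alternative without a filter on low values, Trem2 was tested and passed (log2 fold change 1.68, adjusted p = 0.0213). Hcst (DAP10), the second adaptor used by receptors of this kind, had means of 55.9 and 81.1 (log2 fold change 0.53, adjusted p = 0.00708).

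The 7 genes listed here as inhibitory paired receptors were Cd33, Cd300lf, Pirb, Pilra, Lilrb4a, Sirpa and Cd300a. Of these, 5 rose, 1 fell and 1 did not pass. Whether Cd33 acts as an inhibitory receptor in mouse cells was not examined. Cd33, a sialic acid-binding lectin of myeloid cells, placed here among the inhibitory receptors, had 226, 198 and 202 scaled reads with DMSO and 517, 588 and 537 with GSK-LSD1. The mean rose 2.62-fold, from 209 ± 14.8 to 547 ± 36.4 (log2 fold change 1.39, SE 0.0794, adjusted p = 8.99e-17). Its relative Siglece rose from 17.1 ± 3.00 to 56.4 ± 9.20 (log2 fold change 1.66). Siglecf did not pass, at 38.2 and 51.1 (adjusted p = 0.0705).

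Cd300a and Cd300lf encode inhibitory receptors for lipids exposed on cell membranes, lie in the same cluster on chromosome 11, and moved in opposite directions. Cd300a (114890041 to 114904654) had 175, 159 and 192 scaled reads with DMSO and 113, 120 and 97.3 with GSK-LSD1. The groups did not overlap. The control mean was 1.59 times the treated one, 175 ± 16.8 against 110 ± 11.7 (log2 fold change -0.66, SE 0.116, adjusted p = 1.61e-05). Cd300lf (115116214 to 115133992) had 35.2, 49.5 and 46.8 with DMSO and 82.6, 117 and 102 with GSK-LSD1, a 2.30-fold rise (log2 fold change 1.18, SE 0.167, adjusted p = 4.34e-07). Of the other genes of the cluster, the activating Cd300lb rose from 8.54 ± 2.92 to 58.3 ± 9.84 (log2 fold change 2.67) and Cd300ld from 3.63 ± 0.602 to 21.8 ± 2.15 (log2 fold change 2.31). Cd300a was thus the one gene lower among the 4 of the cluster that were tested.

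Pirb, the mouse paired immunoglobulin-like receptor B that binds MHC class I, had 256, 214 and 246 with DMSO and 409, 349 and 425 with GSK-LSD1. It rose 1.65-fold (log2 fold change 0.72, SE 0.0872, adjusted p = 1.88e-08), with no overlap between groups. Lilrb4a, an inhibitory receptor of the same broad family, went from 317 ± 13.2 to 389 ± 5.81 (log2 fold change 0.29, adjusted p = 0.00159). These 2 genes are the most exposed to shared reads: 34.0% of the 50-base windows of Pirb and 46.7% of those of Lilrb4a also occur in other genes' transcripts. Their near copies moved the same way, Lilra6 by 0.96 (adjusted p = 6.31e-04) and Lilr4b by 0.32 (adjusted p = 0.00125), so how much of each value belongs to which copy is uncertain.

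Pilra, a receptor with an inhibitory tail that pairs with the activating Pilrb genes, had 38.1, 44.6 and 46.8 scaled reads with DMSO and 49.99, 90.1 and 70.1 with GSK-LSD1. The treated libraries varied widely and the lowest was only slightly above the highest control. The mean rose 1.62-fold, from 43.2 ± 4.52 to 70.0 ± 20.0 (log2 fold change 0.65, SE 0.187, adjusted p = 0.00494). The call was lost without GSK-LSD1 replicate 2 (0.45, adjusted p = 0.0873) and with quantile scaling (0.42, adjusted p = 0.0759), and the lowest adjusted p over the alternatives was 7.29e-04. Pilra overlaps an exon of Zcwpw1 on the other strand, whose values were 85.9, 94.1 and 101 with DMSO and 106, 115 and 105 with GSK-LSD1 (adjusted p = 0.179), and 7.57% of its windows are shared with another gene. The activating partner Pilrb1 fell by 1.13 on the log2 scale, from 78.7 ± 7.42 to 36.2 ± 8.89 (adjusted p = 5.62e-06).

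Sirpa, the receptor for the "do not eat me" protein CD47, stood at 1063 ± 21.9 scaled reads in controls and 1114 ± 23.5 in treated libraries. Its log2 fold change of 0.07 (SE 0.0520) did not pass (adjusted p = 0.313). Its ligand gene Cd47 had a log2 fold change of 0.02 (adjusted p = 0.793). In contrast, the activating relative Sirpb1a rose from 7.91 ± 4.99 to 67.9 ± 6.62 (log2 fold change 3.13, adjusted p = 1.54e-10). Of the phosphatases that inhibitory receptors recruit, Ptpn6 (SHP-1) rose from 1306 ± 41.9 to 1749 ± 29.7 (log2 fold change 0.42), Inpp5d (SHIP-1) rose by 0.16, and Ptpn11 (SHP-2) did not pass (-0.06, adjusted p = 0.382).

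**Figure D2:**
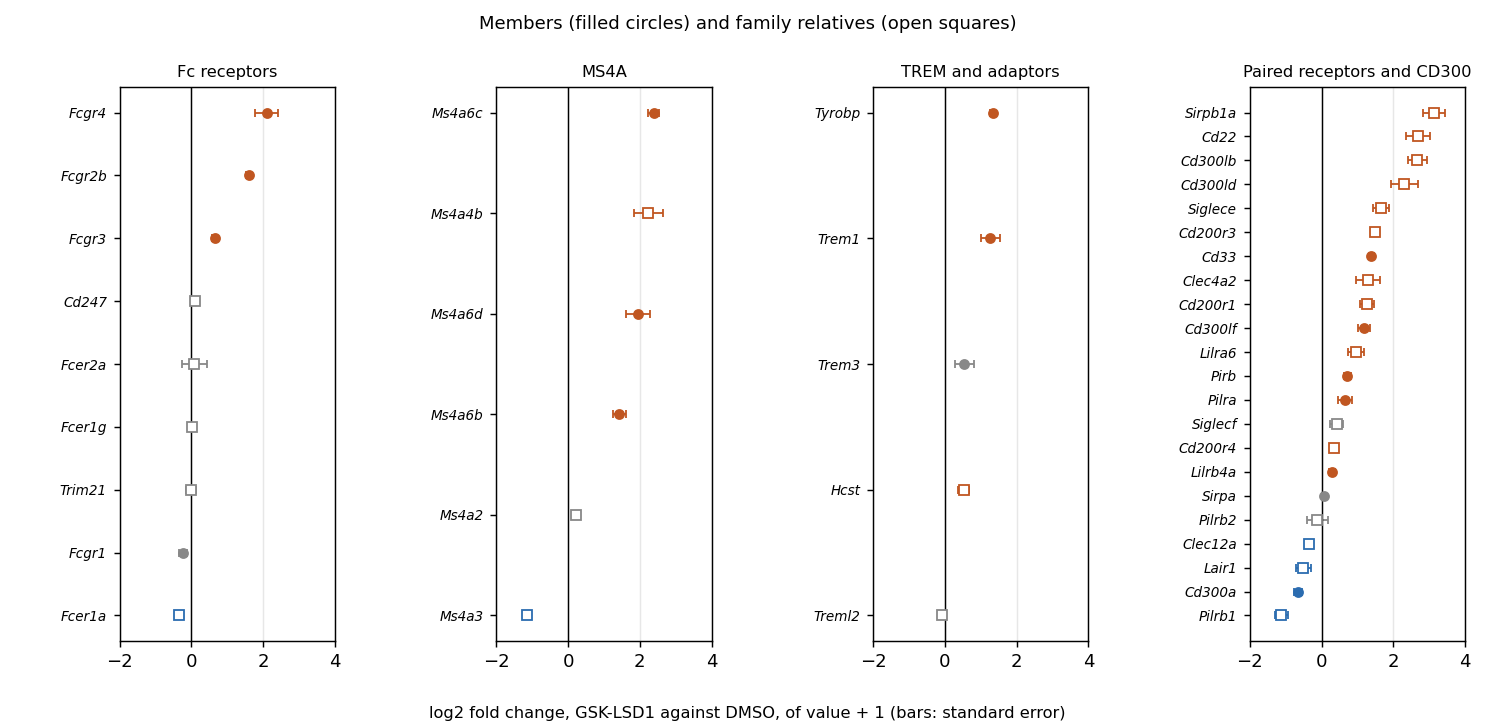
Log2 fold change of value + 1 (horizontal axes, GSK-LSD1 against DMSO, with standard errors) of genes of the set (filled circles) beside tested relatives outside it (open squares), in 4 families, with orange for higher, blue for lower and grey for not past the threshold. In each family some genes lie near 0 or below it, such as Fcer1g (0.02), Ms4a3 (-1.15), Treml2 (-0.09) and Pilrb1 (-1.13).

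**Figure D3:**
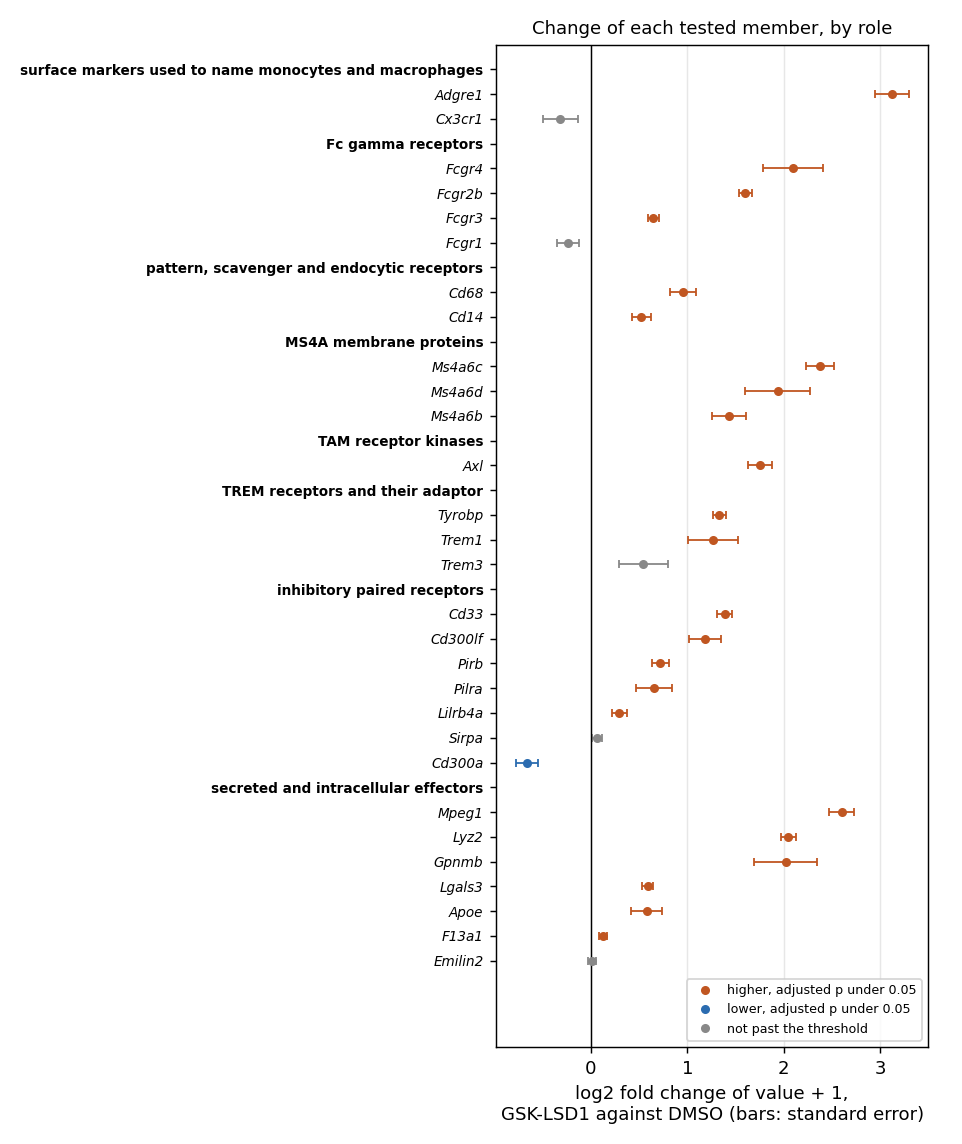
Log2 fold change of value + 1 (horizontal axis, GSK-LSD1 against DMSO, with its standard error) of the 29 tested genes, grouped by role and coloured by the limma call. The points run from -0.66 for Cd300a to 3.12 for Adgre1. The genes listed as inhibitory paired receptors are the one group with points called on both sides of 0.

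Of the 7 tested effector genes 6 rose, over a range from 1.09-fold to 6.06-fold. Gpnmb, among the 6, entered the test through its GSK-LSD1 values alone. Mpeg1 encodes perforin-2, a pore-forming protein of macrophage phagosomes. It lies on chromosome 19 from 12460779 to 12465283, on the same chromosome as the MS4A cluster but not next to it. It had 51.8, 39.6 and 63.7 scaled reads with DMSO and 309, 324 and 307 with GSK-LSD1. All treated libraries were several-fold above all controls. The mean rose 6.06-fold, from 51.7 ± 12.04 to 313 ± 9.40 (log2 fold change 2.60, SE 0.131, adjusted p = 2.09e-18).

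Lysozyme cuts the cell wall of bacteria, and the mouse has a pair of adjacent lysozyme genes on chromosome 10, Lyz2 (117277331 to 117282321), the form of myeloid cells, and Lyz1 (117287797 to 117292868), the form of Paneth cells of the gut. Lyz2 had 208, 258 and 267 scaled reads with DMSO and 1005, 1115 and 913 with GSK-LSD1. Its mean rose 4.14-fold, from 244 ± 31.6 to 1011 ± 101 (log2 fold change 2.05, SE 0.0801, adjusted p = 1.26e-21), with no overlap. Lyz1 had 1 read in all DMSO libraries and 2 in all GSK-LSD1 libraries. The coding sequences of the 2 genes are 95% identical, with 22 of 444 bases different, and are shown here because that likeness bears on whether reads could be assigned. The first 120 coding bases in GENCODE M21 (GRCm38) hold 11 of the differences, in capitals.
Lyz1: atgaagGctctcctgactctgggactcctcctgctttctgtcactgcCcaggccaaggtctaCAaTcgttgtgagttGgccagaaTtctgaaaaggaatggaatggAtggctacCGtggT
Lyz2: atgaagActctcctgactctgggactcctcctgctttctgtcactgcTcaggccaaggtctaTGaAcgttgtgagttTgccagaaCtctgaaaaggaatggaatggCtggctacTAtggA
Over whole transcripts, 15.4% of the 50-base windows of Lyz2 and 16.1% of those of Lyz1 also occur in another gene. In the stretch shown no identical run reaches 50 bases, so no window shared by the pair lies wholly within it.

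Gpnmb, a lysosome-linked membrane glycoprotein of lipid-laden macrophages, was near the floor in DMSO, at 7.81, 7.93 and 3.98 scaled reads. It had 36.7, 30.0 and 21.4 with GSK-LSD1, a 4.47-fold rise (log2 fold change 2.02, SE 0.329, adjusted p = 5.10e-06). Lgals3 encodes galectin-3, a sugar-binding protein secreted by macrophages, and had 719, 753 and 710 with DMSO and 1199, 1047 and 1045 with GSK-LSD1. It rose 1.51-fold (log2 fold change 0.59, SE 0.0590, adjusted p = 2.61e-10). Apoe, the lipid carrier apolipoprotein E, had 58.6, 50.5 and 43.8 with DMSO and 81.6, 68.3 and 78.8 with GSK-LSD1. Its rise of 1.496-fold (log2 fold change 0.58, SE 0.163, adjusted p = 0.00427) was not past the threshold under quantile scaling (0.37, adjusted p = 0.0668), and over the alternatives the adjusted p went down to 0.00230. None of these 3 genes had overlapping groups.

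The 2 genes with the most scaled reads changed little. F13a1 encodes the A chain of coagulation factor XIII, which monocytes and platelets carry. It had 12460, 12474 and 13181 scaled reads with DMSO and 13895, 13836 and 13910 with GSK-LSD1. The groups did not overlap, but the rise was 1.09-fold (log2 fold change 0.13, SE 0.0427, adjusted p = 0.0150), and leaving out GSK-LSD1 replicate 1, 2 or 3 took the adjusted p to 0.0538, 0.0585 and 0.0692, with a range down to 4.39e-05 over the alternatives. Emilin2, an extracellular matrix glycoprotein, had a mean of 5437 ± 197 with DMSO and 5471 ± 157 with GSK-LSD1. Its groups overlapped, and the log2 fold change of 0.01 (SE 0.0437) did not pass (adjusted p = 0.885). It was -0.02 without DMSO replicate 1 and -0.01 without GSK-LSD1 replicate 1.

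F13a1 and Emilin2 made up 76.4% to 76.9% of the summed scaled reads of the gene set in DMSO and 64.7% to 65.3% with GSK-LSD1. The sum over all 37 genes with a row was 23068 to 24410 with DMSO and 29464 to 29962 with GSK-LSD1. Without those 2 genes it was 5383, 5433 and 5755 in the DMSO libraries and 10428, 10539 and 10228 in the GSK-LSD1 libraries. The sum of the other genes was therefore 1.88 times as high with GSK-LSD1, while that of the whole set was 1.26 times as high.

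**Figure D4:**
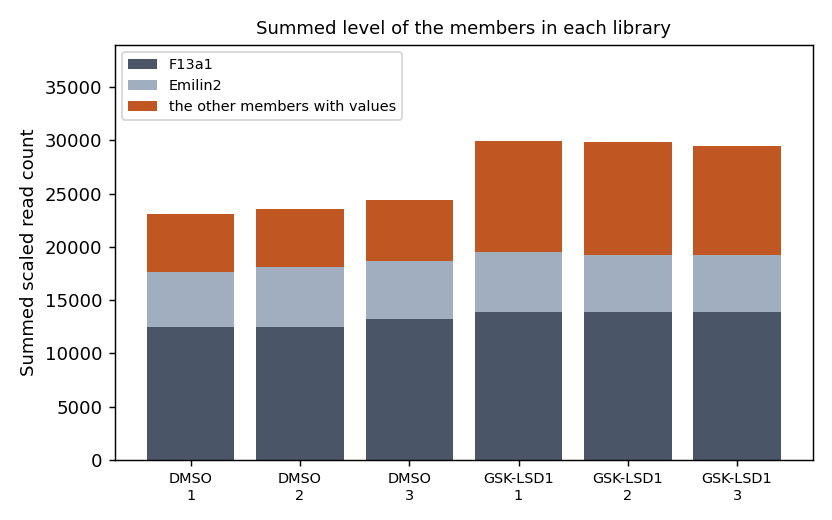
Summed scaled reads of the monocyte and macrophage genes in each of the 6 libraries, as stacked bars from 0 that separate F13a1, Emilin2 and the sum of all other genes. The F13a1 and Emilin2 parts have nearly equal heights in all libraries, and the part of the other genes grows from 5383 to 5755 with DMSO to 10228 to 10539 with GSK-LSD1.

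Per kb of exon (GENCODE M21), the median over the 29 tested genes was 26.9 scaled reads per kb with DMSO and 70.5 with GSK-LSD1. The length was that of all annotated exons of a gene, not of the transcript expressed. Levels and ranks can therefore be compared between genes only roughly. The order at the top was F13a1, Emilin2 and Tyrobp in DMSO, at 1885, 988 and 489 scaled reads per kb. With GSK-LSD1 Tyrobp stood above Emilin2, at 1233 against 994. Lyz2 went from rank 7 to rank 4, with 186 and 768 scaled reads per kb. Adgre1, in spite of the largest fold, reached rank 17, at 48.9 scaled reads per kb, below Sirpa at 227 and Cd14 at 145. Ranks fell for Cd300a, from 14 to 22, and for Cx3cr1, from 22 to 28. Under 10 scaled reads per kb there were 7 of the 29 genes with DMSO and 2 with GSK-LSD1, and Gpnmb was the lowest in both, at 1.01 and 4.51.

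**Figure D5:**
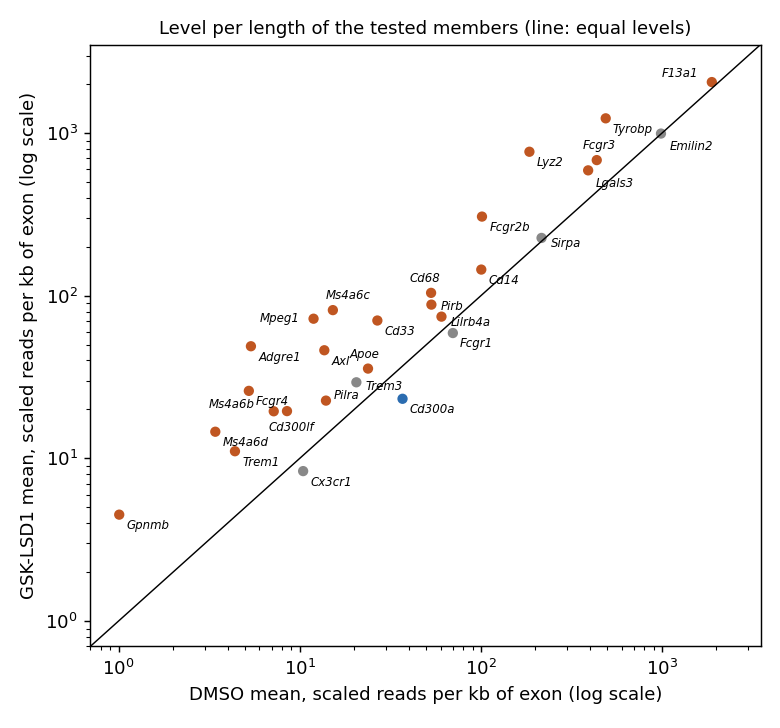
Mean level of the 29 tested genes in scaled reads per kb of exon, DMSO (horizontal, log scale) against GSK-LSD1 (vertical, log scale), with a line of equal levels and the limma call as colour. Most points lie above the line, with the widest distance at low levels such as Adgre1 (5.38 to 48.9), while F13a1, Emilin2 and Sirpa lie on or near it.

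Promoters were searched for short motifs bound by PU.1, C/EBP, GFI1, AP-1 and IRF factors, as a description of the gene set. RefSeq windows (GRCm38.p6), from 250 bases before to 50 after the start, were at hand for 33 of the 42 genes and for 27025 genes in all. Both strands were read, and the motifs were counted separately, so that 1 stretch could count for more than 1 motif. The PU.1 motif GAGGAAGT was in 5 of the 33 windows (15.2%) and in 3.28% of all windows. The C/EBP motif TTGCNNAA was in 6 (18.2%) against 10.8%, the AP-1 motif TGANTCA in 3 (9.09%) against 7.93%, the IRF motif (GAAA, any 2 bases, GAAA) in 3 (9.09%) against 3.49%, and the GFI1 motif AATCACNGC in 2 (6.06%) against 0.94%. Among the 18 windows of genes that were tested and higher, 3 held the PU.1 motif (16.7%), 3 the C/EBP motif (16.7%), 2 the AP-1 motif (11.1%), 2 the IRF motif (11.1%) and 1 the GFI1 motif (5.56%). Over the 8920 windows of all genes tested the shares were 3.25%, 8.15%, 4.76%, 2.97% and 0.942%, in the same order. A match is a description and not a binding site, and no binding was measured here.

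The 250 bases before the start are shown, 5′ to 3′ on the gene's own strand, for 3 genes that rose and whose windows held these motifs: Fcgr4 (chr1:171018676-171018925, plus strand), Pirb (chr7:3720383-3720632, minus strand) and Cd68 (chr11:69666171-69666420, minus strand). Capitals mark the matches. Fcgr4 has an IRF match and, nearest the start, a PU.1 match on the other strand. Pirb has 1 PU.1 match. Cd68 has an AP-1, a GFI1, a C/EBP and a further AP-1 match, in that order.
Fcgr4: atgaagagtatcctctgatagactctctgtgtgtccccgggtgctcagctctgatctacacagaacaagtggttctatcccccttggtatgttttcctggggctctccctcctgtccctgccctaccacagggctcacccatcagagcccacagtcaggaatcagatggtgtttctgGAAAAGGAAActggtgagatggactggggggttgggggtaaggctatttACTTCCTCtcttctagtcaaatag
Pirb: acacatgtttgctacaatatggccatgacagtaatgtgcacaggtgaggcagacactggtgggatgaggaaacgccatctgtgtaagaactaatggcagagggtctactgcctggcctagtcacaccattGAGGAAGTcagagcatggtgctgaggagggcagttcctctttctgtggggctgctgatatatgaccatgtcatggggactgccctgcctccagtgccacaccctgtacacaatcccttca
Cd68: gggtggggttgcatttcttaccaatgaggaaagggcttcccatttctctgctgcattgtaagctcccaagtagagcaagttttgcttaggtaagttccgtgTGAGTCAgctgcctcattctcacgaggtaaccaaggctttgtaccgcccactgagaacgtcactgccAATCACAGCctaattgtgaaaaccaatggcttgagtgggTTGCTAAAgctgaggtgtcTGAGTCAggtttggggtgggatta

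Relatives, ligands, adaptors and further monocyte genes gave the context, from a list of 152 genes outside the set. Of these, 103 had values and 71 were tested: 37 were higher, 12 were lower and 22 did not pass, with a median log2 fold change of 0.30. Over all genes tested, 20.6% were higher and 20.5% were lower, so the number lower here was near the share of all genes. Ms4a4b, Cd300ld, Cd22, Clec4a2, Cd180, Lpl and C5ar1 entered the test through their GSK-LSD1 values alone, with every DMSO value under 10. Among the other 64, 30 were higher and 12 lower, and the median was 0.23. The largest rises at a mean of at least 20 scaled reads were those of Scara3, a scavenger receptor-like protein (16.5 ± 0.476 to 250 ± 7.67), Sirpb1a, Ctss, the cysteine protease cathepsin S of antigen-presenting cells (47.4 ± 7.39 to 326 ± 38.9), Cd22, a sialic acid-binding lectin best known from B cells (5.62 ± 3.79 to 37.6 ± 4.64) and Cd300lb. Their log2 fold changes ran from 2.67 to 3.85. The largest falls were those of Ms4a3, Pilrb1, the inhibitory receptors Lair1 (-0.52, adjusted p = 0.0464) and Clec12a (-0.36), and Fcer1a (-0.35).

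Monocyte and macrophage genes outside the set bear on its name. Of 12 tested, 8 rose and 1 fell. Csf1r, the receptor for the macrophage growth factor, was low but rose from 11.8 ± 4.17 to 45.0 ± 12.2 scaled reads (log2 fold change 1.85, adjusted p = 9.21e-07). Ccr2, the chemokine receptor of inflammatory monocytes, rose from 284 ± 20.6 to 520 ± 31.4, and Itgam (CD11b) from 177 ± 16 to 625 ± 31.8. Several defining genes of tissue macrophages, Mrc1, Msr1, Cd163, Trem2 and Ms4a7, were under the level needed for a test in both groups. The set is named for the known role of its genes, and that name gives no identity to these cells.

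Markers of other blood cells moved at the same time. Beside the counts of these and the further lists, 20.6% of all genes tested were higher and 20.5% were lower. Of the 7 later neutrophil markers tested, among 11 listed, 6 rose and 1 fell, and their sum went from 4609 to 4999 scaled reads with DMSO to 21720 to 22421 with GSK-LSD1 with Mmp8 the largest part. Ltf and Retnlg, of later granules, were near 0 in both groups. Of 12 mast cell and basophil markers 6 rose and 2 fell, with a sum of 39000 to 41557 against 48973 to 51079. Cpa3 was the largest part of that sum, with means of 14320 with DMSO and 23028 with GSK-LSD1. The 2 that fell were Hdc and Fcer1a. Tpsab1 was near the floor with DMSO, at 5 reads over the group, and no other marker of that list was at 0 in any library. Of 9 promyelocyte markers 3 rose and 4 fell, with a sum of 16957 to 18551 against 18999 to 19547. Mpo was the largest part of that sum, with means of 7390 with DMSO and 8952 with GSK-LSD1. Ptprc and Spi1 rose with Mpo. Elane, Prtn3, Ctsg and Ms4a3 fell, with log2 fold changes from -1.15 to -0.47. These cell types share Fcgr2b, Fcgr3, Tyrobp, Cd33, Cd300a, Cd300lf, Pirb and Lilrb4a with monocytes, and the part of these markers' cells in the values above was not tested.

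Further lists moved less or in the other direction. Of 3 dendritic cell markers tested, among 12 listed, 1 rose, with a sum of 144 to 158 against 164 to 196 and with H2-Aa, Flt3 and Xcr1 at or near 0. All 6 erythroid markers with values fell, with a sum of 260 to 329 scaled reads against 44.8 to 66.2. Of 6 B cell markers with values only Cd22 could be tested, and Cd79a and Ebf1 were at or near 0. Of 3 T and NK cell markers tested 2 fell, with Cd3d and Cd2 at or near 0, and of 4 megakaryocyte markers 1 rose and 2 fell. Fibroblast markers gave 2 higher and 1 lower of 3, the 1 endothelial marker tested, Pecam1, was higher, and the 1 osteoclast marker tested, Acp5, was lower.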

How the data were processed

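RNA-seq was done on 6 libraries, 3 per group, assigned by their titles. Per the labels' protocols, total RNA was extracted with a column kit and a sequencing service built the libraries. The deposited values are a normalised signal, which the authors made as 1 value per gene symbol and library. Every value was a whole multiple, within 0.01, of its library's smallest value, which gives 9572638 to 10199533 reads per library if that value is 1 read. For DMSO replicates 2 and 3 the smallest value, 0.991 and 0.995, lies too near 1 for a separate check of this reading. STAR, DESeq2, mm10 and GRCm38 are named, per the submitters' processing notes, without role or version. How reads were counted, with which annotation, strand setting and gene filter, is not given in the sources used here. Without strand, reads of overlapping genes on opposite strands, which 7 members have, cannot be told apart, and reads of the retroviral and the mouse's own copies were not separated.

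Genes with a value of at least 10 in at least 3 of 6 libraries were kept (11588; 3447 left out). The 22 rows whose symbol is a date stayed in the tests. limma 3.58.1 (R 4.3.3) was run on log2(value + 1), allowing the prior variance to follow the mean, with no replicate term, with a threshold of 0.05 after Benjamini-Hochberg adjustment over all genes tested. The code was tested on simulated data. Alternatives were other pseudocounts and filters, quantile scaling, a replicate term, each library left out, and edgeR 4.0.16 on the reads recovered, the last chosen after seeing the data. Coordinates, exon lengths and coding sequences came from GENCODE M21 (GRCm38), and promoters from RefSeq (GRCm38.p6). Values per library are given for genes past the threshold whose log2 fold change is 0.5 or more up or down, and for surface markers and Fc gamma receptors. Of the 152 relatives, the 5 largest rises and falls at a mean of at least 20, and genes that share a receptor, adaptor or cluster, are named. The genes and lists were chosen with earlier results of these data known. Libraries of a group differed by more than sampling noise and were each counted as a sample.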

Additional observations from a re-analysis of the deposited data

How the results depend on the processing

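Of the 29 genes tested, 22 kept their direction and their side of the threshold in every alternative in which they were tested. Emilin2, which was not past the threshold in any of them, changed sign without DMSO replicate 1 (-0.0193) and without GSK-LSD1 replicate 1 (-0.0129), and ranged from -0.0193 to 0.0323 with each library left out. No gene that was past the threshold changed sign. The median log2 fold change of 0.96 was 0.72 with a mean value of at least 50 and 0.80 with quantile scaling. With quantile scaling 3 genes were lower in place of 1, since Cx3cr1 (-0.55) and Fcgr1 (-0.32) passed, and the calls of Pilra (0.42) and Apoe (0.37) were lost. Over all genes, that scaling gave 18.1% higher and 22.6% lower. With each library left out in turn the number lower ranged from 1 to 2, with 2 without DMSO replicate 2. The number of relatives higher was 23, in place of 37, with a mean value of at least 50, where fewer genes were tested. For the other changes the cause was not tested. edgeR, chosen after seeing the data, kept 24 of the 24 calls. Same-numbered libraries did not deviate together (correlations -0.02, -0.03 and -0.01), and with a replicate block 23 genes were higher and 1 lower, the same 24 calls. Genes under about 10 scaled reads, such as Ly86, Trem2 and Ms4a7, are limited by depth.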
